A study of Homo sapiens with 6 samples.

Results

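The Hippo core measured here comprised 10 genes: the scaffold NF2, the MST kinases STK3 and STK4 with their partner SAV1, the LATS cofactors MOB1A and MOB1B, the kinases LATS1 and LATS2, and the coactivators YAP1 and WWTR1, the gene of TAZ. They were chosen by symbol for their place in the pathway, and all 10 were found among the 28278 gene symbols of the count files. The cells were HT29, a human colorectal adenocarcinoma line of epithelial morphology. In 3 libraries they had received an siRNA against ALDOA, the glycolytic enzyme aldolase A (siALDOA, genotype label ALDOA KD), and in the other 3 a scrambled siRNA (siControl, genotype label WT). RNA was taken 48 h after treatment in every library, as biological replicates of a single cell line, with no untreated cells and no other siRNA against ALDOA among them.

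The Hippo pathway is a kinase cascade that restrains growth in epithelia. NF2 (merlin) recruits the cascade at the membrane, the MST kinases bound to SAV1 phosphorylate LATS and MOB1, and LATS phosphorylates YAP and TAZ, which are then held in the cytoplasm or degraded. Unphosphorylated YAP and TAZ enter the nucleus and drive transcription with TEAD factors, and in the colon they are known for their part in regeneration and in tumors. The study asked whether ALDOA acts on YAP, and the comparison of siALDOA with siControl shows how far the mRNAs of the cascade itself moved. RNA counts carry no measure of phosphorylation, and in RNA from whole cultures fewer cells with a transcript and less of it per cell cannot be told apart.

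The libraries held 27277538 to 33237914 counts on genes, and 15307 genes passed the filter on low counts and were tested, all 10 Hippo genes included. ALDOA was at 283, 305 and 280 CPM (TMM-scaled CPM, the counts per library brought to a common total) with siALDOA and at 592, 637 and 668 CPM with siControl, so every library matched its label. Ribosomal RNA genes took 13.1% to 17.4% of the counts in 3 libraries (siALDOA replicate 1 and siControl replicates 1 and 2) and 7.71% to 8.15% in the other 3. Distances were taken as a chi-square of the raw counts per gene, with the ribosomal RNA genes included. By this measure siALDOA replicate 1 lay nearer to siControl replicate 2 (26.6) than to siALDOA replicate 2 (39.8). Likewise siControl replicate 3 lay nearer to siALDOA replicate 3 (23.2) than to siControl replicate 1 (91.9). These distances carry the split in ribosomal RNA share itself, and likeness over the other genes was not measured. This split, seen in the data and not given by the labels, leaves 1 library against 2 on each side. Within the libraries of higher and of lower ribosomal RNA share, the log2 ratio of mean CPM was -0.50 and -0.46 for NF2, 0.33 and 0.11 for LATS2, 0.19 and 0.092 for YAP1 and -0.51 and -1.01 for WWTR1, whose signs follow from groups that do not overlap. Of the members whose groups overlap, STK4, SAV1 and LATS1 had opposite signs on the sides of the split, and STK3, MOB1A and MOB1B were below 0 on both. Of 10 epithelial colon markers, 9 had at least 10 counts in every library and LGALS4 was at 0 in all. The summed marker level was 8387 to 8622 CPM with siALDOA and 9198 to 9664 CPM with siControl, most of it from KRT8 and KRT18 (log2 differences of -0.14 and -0.28), while EPCAM was at 0.13. Of 10 blood cell markers, 2 had at least 10 counts in every library, CD3E and TYROBP were at 0, and the sum was 17.4 to 18.8 CPM against 13.6 to 15.2 CPM, of which CD14 made up 16.9 ± 0.712 and 13.5 ± 1.04 CPM (SD, n = 3). Of 10 fibroblast and endothelial markers, 3 had at least 10 counts in every library, COL1A2 was at 0, and the sum was 4.46 to 4.86 CPM against 4.46 to 6.35 CPM. The part of the lower epithelial sum and of the higher blood marker sum in the results below was not tested.

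A single gene of the core passed the threshold of an adjusted p of 0.05 in edgeR's quasi-likelihood test: NF2, which fell with siALDOA. Its fall was 1 of 10 members called lower, where 5.29% of all tested genes were called lower. None of the 10 was called higher, where 4.36% of all tested genes were, and in either direction the background was 9.66%. At the unadjusted p of 0.01 used in the study, NF2 and LATS2 passed, 2 of 10 members against 12.5% of tested genes. By log2 fold change 3 members were above 0 and 7 below, with a median of -0.07, beside a median of 0.0016 over all tested genes. The median of the core was -0.0030 with library totals in place of TMM, -0.12 without siALDOA replicate 1 and -0.043 without siALDOA replicate 2. The CPM of the groups did not overlap for 4 members (NF2, LATS2, YAP1 and WWTR1), where 27.7% of tested genes had groups that did not overlap.

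**Figure D1:**
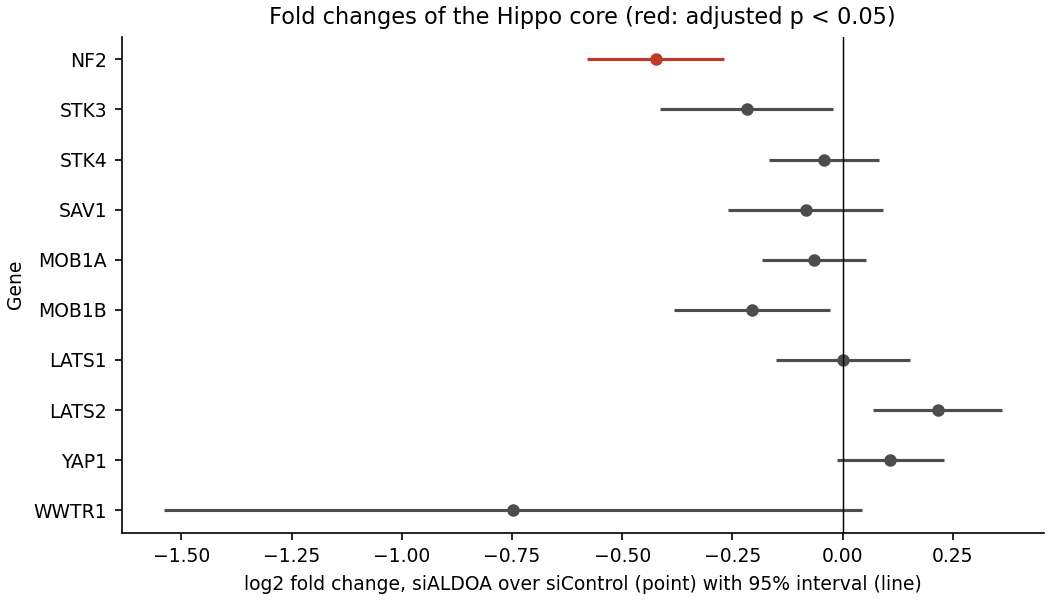
Log2 fold change of each Hippo gene, siALDOA over siControl (x axis), with its 95% interval as a line, from 3 libraries a group. NF2 (red) at -0.42 is the gene past the adjusted threshold, LATS2 and YAP1 lie to the right of 0, and the interval of WWTR1 from -1.54 to 0.045 is the widest of the 10.

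NF2 (ENSG00000186575, chr22:29603556-29698598 on the plus strand of hg38) encodes merlin, the tumor suppressor that brings LATS to the membrane. Its level was 39.7, 43.1 and 47.0 CPM with siALDOA and 55.4, 56.8 and 61.9 CPM with siControl. The highest siALDOA library thus lay below the lowest siControl library. From 58.0 ± 3.41 CPM (SD, n = 3) with siControl to 43.2 ± 3.65 CPM (SD, n = 3) with siALDOA, NF2 fell by 0.42 on the log2 scale (SE 0.074, edgeR adjusted p = 7.35e-04). On the linear scale it fell by 25.5%, with a 95% interval from -33.1% to -17.0%. No exon of NF2 overlaps an exon of another gene in the annotation, and 2.46% of its windows of 50 bases also occur in transcripts of other genes.

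NF2 was then set against the rest of the core within each library, a measure that needs no scaling between libraries. It was chosen after the values were seen and uses the same NF2 counts, so it is no independent evidence of the fall. Per 100 counts of the other 9 members, NF2 had 4.72, 5.65 and 6.04 counts with siALDOA and 6.82, 7.31 and 7.75 counts with siControl. The groups did not overlap, and the ratio of their means, 5.47 ± 0.680 to 7.29 ± 0.468 (SD, n = 3), was 0.750. The exact two-sided permutation p was 0.1, the smallest that 3 against 3 libraries can give.

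**Figure D2:**
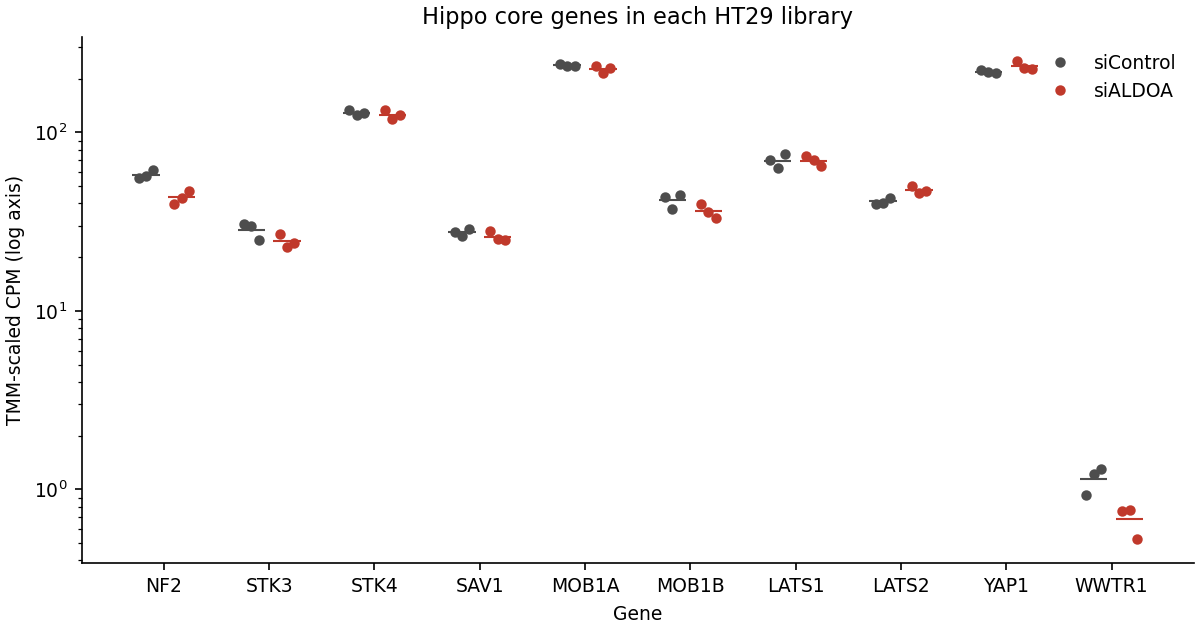
TMM-scaled CPM of each Hippo gene in each of the 6 libraries (points, log axis) with the group means as lines, siALDOA and siControl side by side. NF2 separates downward from 55.4 to 61.9 CPM with siControl to 39.7 to 47.0 CPM with siALDOA, while LATS1, STK4, SAV1 and MOB1A overlap between the groups.

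The MST kinases stand at the top of the cascade. STK3 (MST2, chr8:98371228-98942827, minus strand) was at 26.8, 22.8 and 23.9 CPM with siALDOA and 30.7, 29.8 and 25.1 CPM with siControl. A single siALDOA library, replicate 1, lay above the lowest siControl library. The log2 difference was -0.22 (SE 0.094, edgeR adjusted p = 0.160), with a 95% interval from -0.41 to -0.02. STK4 (MST1, chr20:44966494-45080021, plus strand), the paralog with the higher level per kilobase of exon, was at 133, 118 and 125 CPM against 133, 126 and 129 CPM. Replicate 1 of each group stood highest and the ranges overlapped. Its difference of -0.04 (SE 0.060, adjusted p = 0.733) had an interval from -0.17 to 0.084. SAV1 (chr14:50632058-50668306, minus strand), the scaffold that binds the MST kinases, was at 28.2, 25.2 and 24.9 CPM against 27.7, 26.4 and 28.8 CPM. The groups overlapped, and the difference of -0.08 (SE 0.084, adjusted p = 0.606) had an interval from -0.26 to 0.092. Exons of ATL1 on the opposite strand overlap 31.9% of the SAV1 exon bases, and since the strand setting of the counting is not stated, reads of these genes may have been shared.

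MOB1A and MOB1B bind and activate the LATS kinases once MST has phosphorylated them. MOB1A (chr2:74152528-74178898, minus strand) was at 237, 215 and 231 CPM with siALDOA and 243, 234 and 237 CPM with siControl. Replicate 1 with siALDOA lay within the siControl range, and replicates 2 and 3 with siALDOA lay below it. The difference was -0.06 (SE 0.056, edgeR adjusted p = 0.538), with an interval from -0.18 to 0.053. MOB1B (chr4:70902326-71022449, plus strand), the form with the lower level per kilobase of exon, was at 39.5, 35.8 and 33.3 CPM against 43.3, 37.0 and 44.8 CPM. Replicate 1 with siALDOA lay above replicate 2 with siControl, so the groups overlapped. The difference of -0.21 (SE 0.084, adjusted p = 0.138) had an interval from -0.38 to -0.03, which leaves out 0 although the adjusted threshold was not met. STK3 was the other member with such an interval below 0 and no call.

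The LATS kinases phosphorylate YAP and TAZ directly. LATS1 (chr6:149658153-149718105, minus strand) was at 73.5, 69.9 and 64.5 CPM with siALDOA and 69.7, 62.9 and 75.3 CPM with siControl. Its group means were both 69.3 CPM and its libraries were interleaved. The log2 difference of 0.00070 (SE 0.073, edgeR adjusted p = 0.996) had an interval from -0.15 to 0.15. LATS2 (chr13:20973036-21061586, minus strand), itself a known target gene of YAP, was at 50.4, 45.7 and 47.0 CPM against 39.8, 40.4 and 42.9 CPM. Every siALDOA library was higher than every siControl library. The difference of 0.22 (SE 0.070, unadjusted p = 0.00587, adjusted p = 0.0564) had an interval from 0.070 to 0.36. It missed the adjusted threshold in the edgeR fit but passed it by DESeq2 (adjusted p = 0.0424), with library totals in place of TMM (adjusted p = 0.0427) and with a replicate block (adjusted p = 0.0316).

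**Figure D3:**
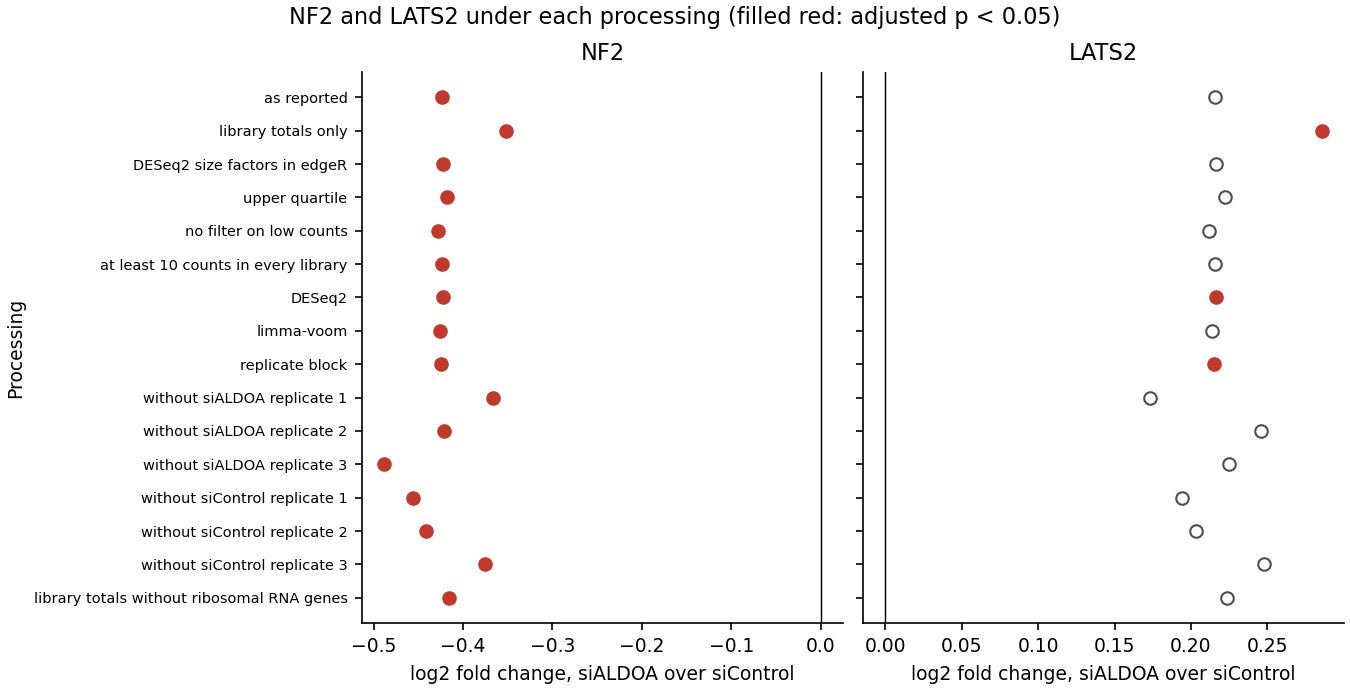
Log2 fold change (siALDOA over siControl, x axis) of NF2 and LATS2 as reported and in 15 alternatives (y axis), with filled points where the adjusted p is below 0.05. NF2 is filled in every setting and ranges from -0.49 to -0.35, and LATS2 lies above 0 in every setting and is filled in 3 alternatives.

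YAP1 (chr11:102110447-102233424, plus strand) encodes the coactivator at the end of the cascade. It was at 252, 228 and 228 CPM with siALDOA and 225, 218 and 214 CPM with siControl. The groups did not overlap, but replicates 2 and 3 with siALDOA lay close to replicate 1 with siControl. The difference of 0.11 (SE 0.058, edgeR adjusted p = 0.270) had an interval from -0.013 to 0.23, which is -0.869% to 17.3% on the linear scale. Without siALDOA replicate 1 the difference was 0.058, and with library totals in place of TMM it was 0.18, neither past the threshold. Exons of a lncRNA on the opposite strand overlap 9.95% of the YAP1 exon bases. That lncRNA is not among the counted gene symbols, and the strand setting of the counting is not stated. WWTR1 (chr3:149517235-149736714, minus strand), the gene of TAZ, was close to the filter on low counts, with 21, 23 and 15 counts with siALDOA and 29, 37 and 43 counts with siControl. Every siALDOA library was lower than every siControl library, at 0.754, 0.765 and 0.528 CPM against 0.930, 1.21 and 1.30 CPM. The difference of -0.75 (SE 0.38, adjusted p = 0.242) had an interval from -1.54 to 0.045. The width of this interval goes with the low counts, and at this depth neither no change nor a fall larger than that of NF2 lay outside it. WWTR1-AS1, whose exons overlap 9.05% of the WWTR1 exon bases on the other strand, was at 0 counts in every library.

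The letters GGAATG, read on either strand (CATTCC on the other), are the core of the motif that TEAD factors bind, and they were searched in the 300 bases around the start sites that RefSeq gives on GRCh38.p14 (250 before and 50 from the start on). Of the 9 members with such a window, LATS2 and YAP1 hold the letters. For these members every siALDOA library stood above every siControl library, but neither was called in the main edgeR fit. The windows are shown 5′ to 3′ on the strand of the gene with the 6 letters in capitals, at chr13:21061537-21061836 (minus strand) for LATS2 and chr11:102110197-102110496 (plus strand) for YAP1.
LATS2: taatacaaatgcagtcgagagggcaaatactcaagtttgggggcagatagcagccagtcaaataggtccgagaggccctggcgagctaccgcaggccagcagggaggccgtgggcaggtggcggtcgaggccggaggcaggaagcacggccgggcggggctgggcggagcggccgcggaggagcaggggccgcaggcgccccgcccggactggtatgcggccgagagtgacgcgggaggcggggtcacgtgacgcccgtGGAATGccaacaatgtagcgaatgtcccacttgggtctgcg
YAP1: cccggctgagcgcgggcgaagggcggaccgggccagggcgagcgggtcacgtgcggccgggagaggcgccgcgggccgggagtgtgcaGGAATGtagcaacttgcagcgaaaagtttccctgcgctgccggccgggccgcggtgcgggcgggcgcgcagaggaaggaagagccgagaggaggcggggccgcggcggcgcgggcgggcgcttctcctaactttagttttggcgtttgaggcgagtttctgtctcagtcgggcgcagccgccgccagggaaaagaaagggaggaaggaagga
Counted with the first transcribed base as 1 and the base before it as -1, the letters begin at position 10 in LATS2 and at -162 in YAP1. By gene, 22.2% of the 9 members hold them, beside 16.7% of 27305 genes with a window and 15.1% of 11344 tested genes, and 14.0% of all 35116 windows do. Tested genes with the letters had a median log2 fold change of -0.0020 and those without a median of -0.00039, and 10.9% against 9.96% were called in either direction. The windows of NF2 do not have these letters. A match of letters is a description and no evidence of a site in use.

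Within each library the members that share a role were set against each other, as log2 ratios of their counts with 0.5 added. LATS2 over LATS1 was -0.54, -0.61 and -0.46 with siALDOA and -0.81, -0.64 and -0.81 with siControl. The groups did not overlap, and the ratio of the kinases was 0.688 with siALDOA against 0.594 with siControl. YAP1 over WWTR1 was 8.35, 8.19 and 8.71 against 7.90, 7.47 and 7.34. The groups did not overlap here either, and YAP1 counts were 342 times those of WWTR1 with siALDOA and 190 times with siControl. The exact two-sided permutation p was 0.1 for each of these ratios (0.25 after Benjamini-Hochberg adjustment over 5 ratios), the smallest that 3 against 3 allows.

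The other 3 ratios overlapped between the groups. STK4 over STK3 was 2.31, 2.38 and 2.38 with siALDOA and 2.11, 2.08 and 2.36 with siControl, and replicate 3 with siControl reached the siALDOA range (exact permutation p = 0.2). MOB1A over MOB1B was 2.58, 2.59 and 2.79 against 2.49, 2.66 and 2.40 (exact permutation p = 0.3). YAP1 over TEAD4, the ratio of the coactivator to a DNA-binding partner, was 4.28, 3.88 and 4.09 against 3.96, 3.80 and 4.01 (exact permutation p = 0.3). After adjustment over the 5 ratios p was 0.3 for each.

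**Figure D4:**
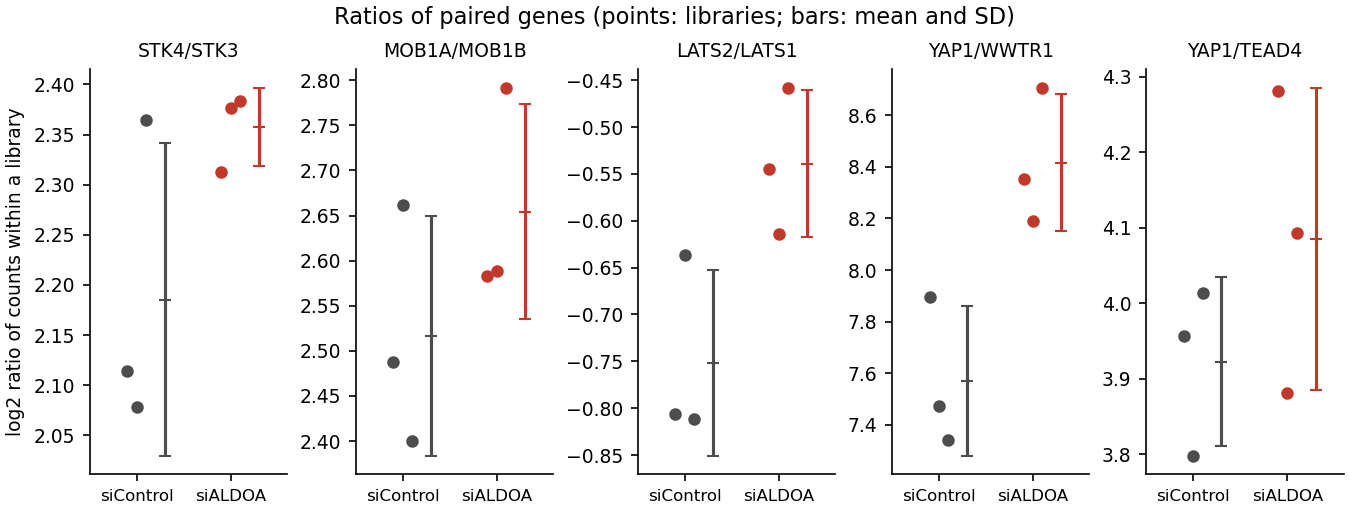
Within-library log2 ratios (y axis) for 5 pairs of Hippo genes, 1 point per library, with bars for the mean and SD of each group and a separate axis range for each pair. The points separate for LATS2 over LATS1 and for YAP1 over WWTR1, by 0.21 and 0.85 between the group means, and overlap for the other 3 pairs.

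Levels of different genes were compared as CPM per kilobase of exon. With siControl, MOB1A (37.0 ± 0.685, SD, n = 3) and YAP1 (34.7 ± 0.901) stood far above the rest of the core. LATS1 (8.16 ± 0.730), NF2 (7.85 ± 0.462), STK4 (7.80 ± 0.213) and LATS2 (7.31 ± 0.288) followed, and the ranges of neighbors in this order overlapped. SAV1 (4.93 ± 0.219) and MOB1B (4.74 ± 0.469) did not differ beyond their spread, STK3 was at 2.26 ± 0.237 and WWTR1 at 0.138 ± 0.0234. With siALDOA the order was YAP1 (37.4 ± 2.23) and MOB1A (35.3 ± 1.72), which overlapped within their SD, then LATS2 (8.49 ± 0.436), LATS1 (8.16 ± 0.532), STK4 (7.58 ± 0.457) and NF2 (5.85 ± 0.494), then SAV1, MOB1B, STK3 and WWTR1 as before. The order depends on the length used, and with the longest transcript in place of all exons STK4 stood next after MOB1A and YAP1 with siControl, at 16.0 CPM per kilobase. YAP1 was thus present at a high mRNA level in every library, and TAZ mRNA was scarce in every library.

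The rest of the pathway was described with 5 lists of 69 genes, of which 64 were tested. Of these, 1 was called higher and 3 lower, 18 were above and 46 below 0, and the median log2 fold change was -0.05, beside 0.0016 over all tested genes. With library totals in place of TMM, 4 of the 5 list medians turned positive, while the median of all genes moved to 0.075. The 4 calls sit beside the background of 9.66% given above.

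Among the parallel kinases of the LATS and NDR level, 0 of 12 tested were called higher and 1 lower. That gene was MAP4K4, a kinase that can phosphorylate LATS alongside the MST kinases (chr2:101696850-101894690, plus strand). It was at 22.1, 26.6 and 20.1 CPM with siALDOA and 35.0, 35.3 and 32.7 CPM with siControl. Every siALDOA library was lower, and MAP4K4 fell by 0.58 on the log2 scale (SE 0.095, edgeR adjusted p = 3.29e-04). Among the upstream activators and junction scaffolds, 0 of 15 tested were called higher and 1 lower. TAOK3, of a kinase family that phosphorylates MST, was at 16.0, 13.7 and 16.4 CPM against 19.8, 19.8 and 20.3 CPM, with no overlap. It fell by 0.38 (SE 0.098, adjusted p = 0.0170), but missed the threshold with library totals (adjusted p = 0.0927) and without siALDOA replicate 2 (0.0964), siControl replicate 2 (0.0553) or siControl replicate 3 (0.0739).

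Among the STRIPAK members and other inhibitors of MST or LATS, 1 of 17 was called in each direction. MOB4, a component of the phosphatase complex STRIPAK that dephosphorylates MST, was at 44.6, 46.2 and 46.0 CPM with siALDOA and 51.6, 54.5 and 52.6 CPM with siControl. It fell by 0.21 (SE 0.065, edgeR adjusted p = 0.0425), but 17.1% of its exon bases overlap the readthrough gene HSPE1-MOB4, so its value is uncertain. Its call was lost in 9 of 15 alternatives, among them leaving out any of the 6 libraries (adjusted p from 0.0605 to 0.163). DLG5, a polarity scaffold that inhibits MST, was at 101, 100 and 108 CPM against 94.5, 86.6 and 88.7 CPM. It was higher in every siALDOA library, and rose by 0.20 (SE 0.062, adjusted p = 0.0444). The call was lost without siALDOA replicate 2 (adjusted p = 0.0719), siALDOA replicate 3 (0.176), siControl replicate 2 (0.198) or siControl replicate 3 (0.172), and a lncRNA on the opposite strand overlaps 16.7% of its exon bases, so that its value is uncertain too. The groups did not overlap for either gene.

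The TEAD factors, through which YAP and TAZ reach DNA, and the VGLL cofactors of TEAD had 0 called in each direction among 7 tested. TEAD1 was at -0.09 (adjusted p = 0.372 by edgeR), TEAD2 at -0.10 (adjusted p = 0.624), TEAD3 at -0.03 (adjusted p = 0.833) and TEAD4 at -0.05 (adjusted p = 0.823) on the log2 scale. VGLL1, which competes with YAP for TEAD, had the smallest p of the list, with 1.64 CPM with siALDOA against 0.816 CPM and a log2 difference of 1.00 (SE 0.36, adjusted p = 0.0847). VGLL3 followed at -0.42 (adjusted p = 0.350). The proteins that hold YAP and TAZ in the cytoplasm or lead to their degradation had 0 of 13 called in each direction, and their log2 differences ranged from -0.12 to 0.14. YWHAH (-0.12, adjusted p = 0.255) and CSNK1E (-0.11, adjusted p = 0.315) had the smallest p of that list.

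**Figure D5:**
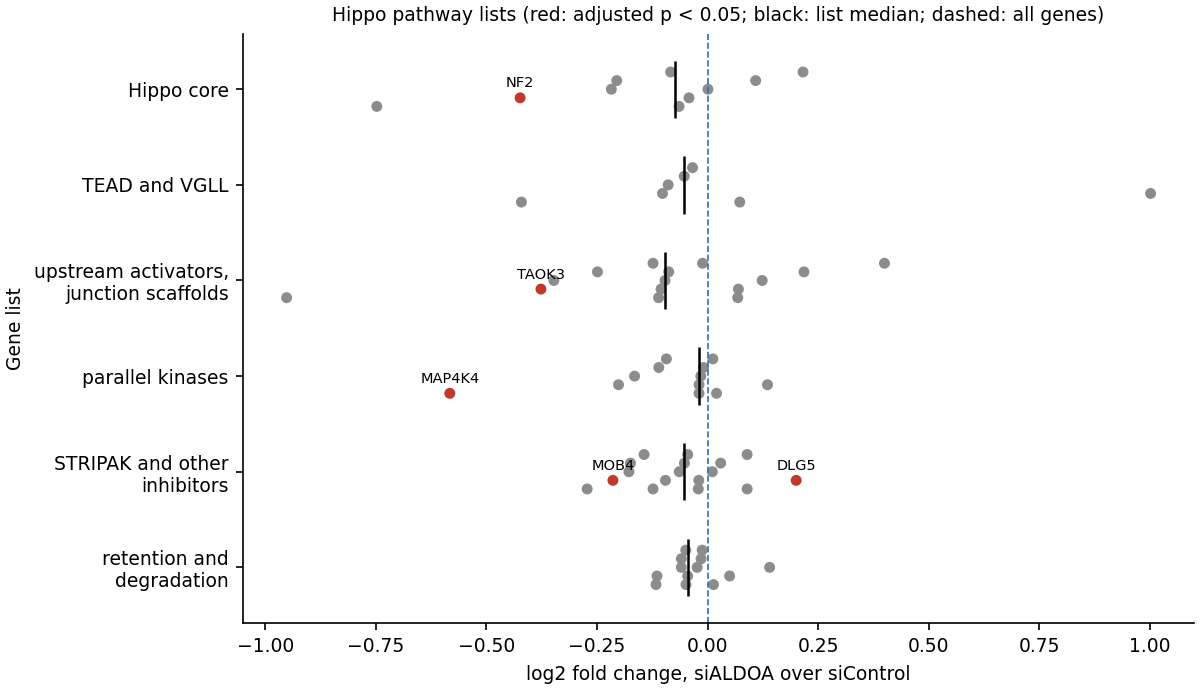
Log2 fold changes (siALDOA over siControl) of the tested genes of the Hippo core and the 5 pathway lists, 1 point per gene, with called genes in red, list medians as black lines and the median of all tested genes as a dashed line. Among the called genes NF2, MAP4K4, TAOK3 and MOB4 lie below 0 and DLG5 above 0, and no gene of the TEAD and VGLL list or of the retention and degradation list is red.

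The word GAGGAGA in 3′ UTRs, searched on the strand of the transcript, was picked from earlier results of these data, in which its genes tended to be lower with siALDOA, so the background values given next are no independent evidence. It is shown in STK4 and MOB1A. Of 12782 tested 3′ UTRs, 16.1% held it, and 13.3% of these genes were called lower against 4.55% of those without it. The median log2 fold change was -0.05 with the word and 0.0049 without. STK3, STK4 and MOB1A hold it and had no call, whereas the 3′ UTR of NF2, the called member, does not. The site in STK3 is not shown here. The sites in STK4 (at chr20:45075969-45075997 and chr20:45077720-45077748, plus strand) and MOB1A (at chr2:74154291-74154319, minus strand), read 5′ to 3′ with the word in capitals, are as follows.
STK4, the first site: cagtgccttaaGAGGAGAcatgatctcta
STK4, the other site: tggccagagagGAGGAGAaagcccatttt
MOB1A: gccaaggggagGAGGAGAattggaggaag
The 4 genes called among the pathway lists (MAP4K4, TAOK3, MOB4 and DLG5) do not hold the word in the 3′ UTR used.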

How the data were processed

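Total RNA of HT29 cells was sequenced from 3 siALDOA and 3 siControl libraries, and the groups were taken from the labels. For the deposited counts, the authors used tophat2 (alignment to hg38) and gfold (counting by gene symbol), and the values are raw, with no normalization. The submitters' processing notes also name edgeR and limma. The gene models, the strand setting and the treatment of multiply matching reads are not given in the sources used here. The totals were 27277538 to 33237914 counts per library, and precision is lowest for WWTR1, with 15 to 43 counts per library.

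The counts were tested in R 4.3.3 with edgeR 4.0.16 (filterByExpr on the groups, TMM normalization, quasi-likelihood F-test, no covariate), and p-values were adjusted over all 15307 tested genes by the Benjamini-Hochberg method with a threshold of 0.05. Intervals are 95% intervals of the fit. CPM used the TMM factors, and ratios within a library used a pseudocount of 0.5 and exact two-sided permutation tests. Positions, exon lengths and 3′ UTRs came from GENCODE release 44, promoter windows from RefSeq (GRCh38.p14), read in python 3.11.15, and figures were drawn with matplotlib 3.10.9. The edgeR fit was tested on simulated data. The alternatives were DESeq2 1.42.0, limma-voom (limma 3.58.1), other scalings, other filters on low counts, the replicate number as a block and leave-one-out fits over the libraries.

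All members and ALDOA were named, with TEAD1 to TEAD4, the genes called in each pathway list (up to 4 by p, otherwise the 2 with the smallest p) and the 3 profiles nearest to YAP1, LATS2 and WWTR1. The members, the lists and these rules were chosen with earlier results of these data known.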

Additional observations from a re-analysis of the deposited data

How the results depend on the processing

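NF2 stayed called lower in 15 of 15 alternatives, from -0.49 to -0.35 on the log2 scale, with adjusted p from 1.05e-06 to 0.0167, and MAP4K4 also in 15 of 15, from -0.71 to -0.50. LATS2 ranged from 0.17 to 0.29 with adjusted p from 0.0316 to 0.178, and it passed the threshold in 3, so 2 members were called with library totals only, 2 with DESeq2 and 2 with the replicate block, while leaving out each library gave 1 to 1. TAOK3 passed in 11, DLG5 in 11 and MOB4 in 6 of 15. Of the 64 pathway genes, 4 were called in the main fit, 2 with library totals only and 8 with the replicate block, and leaving out each library gave 1 to 4, with 1 without siALDOA replicate 2, 1 without siControl replicate 3, 2 without siALDOA replicate 3 and 2 without siControl replicate 2.

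With library totals only, 896 genes were called higher and 279 lower, beside 668 and 810 with TMM, and STK4 turned to 0.030 and MOB1A to 0.0077, while the medians turned to 0.05 for the parallel kinases, 0.02 for STRIPAK, 0.03 for retention and degradation and 0.02 for TEAD and VGLL. Leaving out each library gave 359 to 644 genes called higher and 471 to 790 lower, the fewest without siControl replicate 2 (359 and 490) and siControl replicate 3 (363 and 471). LATS1, near 0, turned to -0.0034 without a filter on low counts and ranged from -0.066 to 0.064 over the libraries left out. The scaling by library totals without ribosomal RNA genes was chosen after the data were seen and changed no call among the members. The cause of these shifts was not tested.

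Whether the replicate numbers pair the libraries is not stated by the labels and was not settled here. Same-numbered libraries correlated weakly, with r from 0.026 to 0.035 in their deviations from the group means. Each siALDOA library correlated best with its own number, a hint from the data and not from the design. With the replicate block, 987 genes were called higher and 1175 lower, NF2 was at -0.43 (adjusted p = 1.69e-05). For the within-library ratios a block cannot move the mean difference, and the exact p of LATS2 over LATS1 and of YAP1 over WWTR1 went from 0.1 to 0.25, the smallest that 3 pairs allow. Depth limits WWTR1, at 15 to 43 counts per library, and no gene under the filter was tested.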

Other observations

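The profiles nearest to 3 members over the 6 libraries were found among 13723 tested genes at a mean of 1 CPM or more (13724 for WWTR1), by the mean absolute difference of centred log2 CPM. For YAP1 these were CCT4 (0.012), a subunit of the chaperonin that folds actin and tubulin, LCOR (0.013), a nuclear receptor corepressor, and NBR1 (0.015), an autophagy receptor. For LATS2 they were YIPF1 (0.017), ZNF496 (0.018) and MMS19 (0.018), the last known from the assembly of iron-sulfur proteins. For WWTR1 the distances were larger, with LOC100507564 (0.093), SLPI (0.10), a secreted protease inhibitor of epithelia, and FAM27B (0.11), and at 15 to 43 counts of WWTR1 per library they carry its counting error. Over 6 libraries in 2 groups such a likeness is a description, and no shared function or control was tested.

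Other genes of the pathway came close to the threshold without a call in the edgeR fit. TNIK, a kinase of the MAP4K family, was at -0.20 on the log2 scale (SE 0.065, adjusted p = 0.0561), and CRB3, a polarity protein of apical junctions, was at -0.25 (SE 0.087, adjusted p = 0.0774). These were picked after their values were seen. Among the marker genes, KRT18, a keratin of simple epithelia, fell by 0.28 (adjusted p = 0.0152). PECAM1, an endothelial adhesion protein, fell by 1.23 (SE 0.38, adjusted p = 0.0429) at low means of 0.756 CPM with siALDOA and 1.79 CPM with siControl. CD14, a monocyte receptor, rose by 0.32 (adjusted p = 0.0485). Each was the only call in its list, of 9 epithelial, 3 fibroblast and endothelial and 2 blood cell markers tested.

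The word TCGGAGA, the reverse complement of the seed of the strand that the study prints for its scrambled siRNA, was chosen with earlier results of these data known. It was held by 1.96% of the 12782 3′ UTRs and by none of the 10 Hippo genes, and the median log2 fold change was 0.03 with it and -0.0056 without.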
